A study of Mus musculus with 28 samples.

Results

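The clustered histone genes are the rows of the count tables whose symbol begins with Hist and a digit, the older mouse names for the genes that lie in histone gene clusters. The tables list 68 such genes among 23420 gene symbols. By the letters that follow the digit they fall into 6 linker histone (H1) genes, 18 H2A, 19 H2B, 12 H3 and 13 H4 genes. The H2B genes include Hist3h2bb-ps, which is annotated as a processed pseudogene and is counted with them throughout. The 54 genes whose symbols start with Hist1 lie on chromosome 13, the 10 Hist2 genes on chromosome 3, the 3 Hist3 genes on chromosome 11 and the single Hist4 gene on chromosome 6. Of the 68, 36 passed the filter on low counts and were tested: 5 H1, 7 H2A, 11 H2B, 6 H3 and 7 H4 genes. That filter keeps a gene with enough counts in a group's worth of libraries, so a gene high in only a few groups could pass through those groups.

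Histone proteins package DNA. Pairs of H2A with H2B and of H3 with H4 form the core of the nucleosome, and H1 binds the linker DNA between nucleosomes. Most genes of these clusters are replication-dependent: they are transcribed in S phase, when new DNA has to be packaged, and their mRNA has no introns and ends in a stem-loop that the stem-loop binding protein SLBP holds, in place of a poly(A) tail. Some of them also give polyadenylated transcripts, which have been described in cells that have left the cell cycle. The many copies are near-identical in their coding sequence, so that a short read can match several of them.

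The libraries came from T cells sorted from male mice 6 to 8 weeks old. KO mice carried the Foxp3 allele Foxp3-deltaCNS3-gfp, which lacks the conserved non-coding element CNS3 of Foxp3, the gene for the factor that defines regulatory T (Treg) cells. Their littermates carried Foxp3-gfp, labelled wild type (WT), so both genotypes had the gfp reporter. Each genotype gave 4 populations: thymic Treg cells, thymic CD4 single-positive cells that were not Treg cells (mCD4SP in the titles, CD4SP here), and splenic Treg cells of 2 kinds titled aTreg and rTreg. The titles expand neither the a, the r nor the m. There were 4 KO and 3 WT libraries per population, 28 in all. Nothing in the labels says which libraries came from separate animals, so p-values measure the spread between libraries, which may in part be technical. Foxp3 averaged 544 ± 73.6 CPM (counts per 1000000 gene counts) in KO and 652 ± 16.3 CPM in WT thymic Treg cells, against 1.44 ± 0.363 CPM in KO and 3.36 ± 0.131 CPM in WT CD4SP cells (SD, n = 4 KO and 3 WT). The deleted element is not coding, so these counts do not check the deletion.

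The stem-loop that ends a replication-dependent histone mRNA was searched as a left stem GGNNNT, a loop TNTN and a right stem ANNNCC without gaps, on the transcript strand after the stop codon. It was found in 45 of the 68 histone genes, against 2.17% of 21810 other protein-coding genes of the same annotation (GENCODE M21, build GRCm38). Among the 68 there were 8 forms, and the 3 most frequent, which held 38 of the 45 genes, are shown because they separate H4 from the other families. Capitals mark the 6 letters on each side that pair as the stem, and lower case the 4 letters of the loop.

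25 genes of H1, H2A, H2B and H3: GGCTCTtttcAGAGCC
7 genes, all H4: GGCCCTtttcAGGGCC
6 genes of H1, H2B and H3: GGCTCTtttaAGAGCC

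The match was present in 27 of the 36 tested genes and in 18 of the 32 untested ones. It was not found in Hist2h2be, Hist1h2bc, Hist2h2bb, Hist1h1b or Hist1h1a, which says only that these letters are not in their annotated transcripts. The annotated transcript ran more than 200 bases past the stem-loop in 15 of the 27 tested genes that have one, and in 3 of the 18 untested genes that have one. The polyadenylation signal AATAAA stood in the last 50 bases of 8 of the 36 tested and 4 of the 32 untested genes, against 59.3% of the other protein-coding genes. Per the labels, RNA was total RNA amplified by the SMART method. No source used here gives how the first strand was primed, and the part of priming from poly(A) tails in the levels below was not tested.

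Sequence shared with other genes also differed between tested and untested genes. In the median tested gene, 30.3% of all windows of 50 bases occurred again in another annotated gene, and in the median untested gene 76.6% did. Genes whose exons overlap those of the histone gene were not counted as other genes. For windows of 100 bases the medians were 9.35% and 64.0%. Hist2h2be, Hist1h1b, Hist1h1a and Hist2h2bb shared no window of 50 bases with another gene by this count, though exons of other annotated genes overlap Hist2h2bb. Hist3h2a shared 2.003%, Hist1h1e 8.24%, Hist1h1c 8.54%, Hist1h4d 10.2%, Hist1h2bc 30.6% and Hist1h2ae 43.2%. Reads that match several places are not in the gene counts, so the level of a gene with many shared windows may be too low, by an amount that these tables do not give. The share of reads set aside for that reason lay between 22.8% and 30.4% over the 28 libraries.

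**Figure D1:**
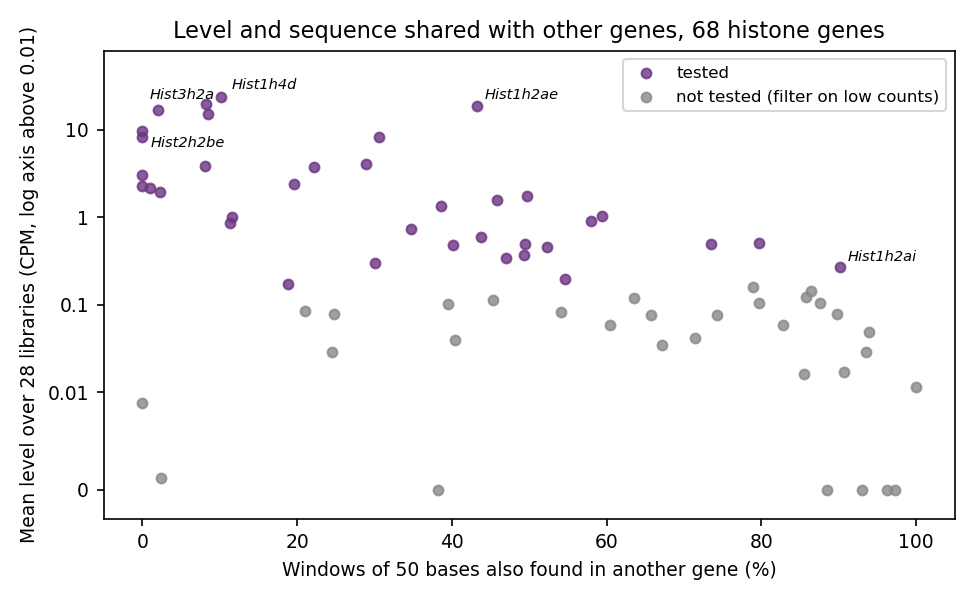
Mean level of each of the 68 histone genes over 28 libraries (CPM, log axis above 0.01) against the share of its windows of 50 bases that occur in another gene not overlapping it (%). Tested genes (purple) had a median of 30.3% and untested genes (grey) of 76.6%, and Hist1h2ae stood out among the high genes with 43.2%.

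Promoters of 60 of the 68 genes were found in RefSeq (build GRCm38.p6), as 250 bases before to 50 bases after the annotated start. Motifs were searched on both strands. The CCAAT box (CCAAT) was in 51 of the 60 (85%, against 37.4% of 32851 promoters of all genes), and in all of the H1, H2A, H2B and H3 promoters but in 3 of 12 H4 promoters. The TATA box (TATAAA) was in 35 of 60 (58.3% against 13.6%). The octamer ATTTGCAT, which POU2F1 is known to bind in H2B promoters, was in 13 of 60 (21.7% against 1.74%), 7 of them H2A and 6 of them H2B. Starts of 13 pairs of an H2A and an H2B gene face away from each other 173 to 306 bases apart. Their promoter windows can overlap, so any of these motifs may be counted for both genes of a pair. The counts do not tell which gene such a motif belongs to. The letters AAACACA, known from H1 promoters, were in 5 of 6 H1 promoters and in 15% of the 60, against 7.18% of all. The core GGTCC, known from H4 promoters, was in 11 of 12 H4 promoters, but its share over all families (43.3%) lay near that of all genes (45.5%). The promoters of 3 genes that differed between cell populations are shown, 1 each of H1, H2A and H4, with the TATA box, the CCAAT box, the octamer and the H1 letters in capitals, on either strand. In the Hist1h2ae window the TATA box and the octamer read on the other strand, that of its H2B neighbour Hist1h2bg, whose start lies in the same window.

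Hist1h1b, chr13:21780576-21780875, minus strand: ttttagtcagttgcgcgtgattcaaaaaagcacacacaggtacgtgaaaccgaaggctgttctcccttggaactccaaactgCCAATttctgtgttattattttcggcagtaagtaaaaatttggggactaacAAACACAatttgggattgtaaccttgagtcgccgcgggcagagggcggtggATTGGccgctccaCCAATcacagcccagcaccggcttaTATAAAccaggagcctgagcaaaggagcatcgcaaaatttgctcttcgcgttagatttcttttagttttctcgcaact
Hist1h2ae, chr13:23571171-23571470, minus strand: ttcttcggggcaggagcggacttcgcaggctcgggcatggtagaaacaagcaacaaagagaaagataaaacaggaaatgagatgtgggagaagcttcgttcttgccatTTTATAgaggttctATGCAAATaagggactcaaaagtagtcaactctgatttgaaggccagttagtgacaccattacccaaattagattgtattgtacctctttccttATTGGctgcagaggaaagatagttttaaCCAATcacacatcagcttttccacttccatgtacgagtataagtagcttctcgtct
Hist1h4d, chr13:23581318-23581617, plus strand: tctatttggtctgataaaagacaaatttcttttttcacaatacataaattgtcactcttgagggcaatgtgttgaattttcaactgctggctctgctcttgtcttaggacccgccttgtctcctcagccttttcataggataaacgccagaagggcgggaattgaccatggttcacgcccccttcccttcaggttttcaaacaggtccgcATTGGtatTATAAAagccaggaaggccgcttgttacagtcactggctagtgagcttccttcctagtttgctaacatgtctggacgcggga

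The histone genes took 136373 of all gene counts in the 28 libraries, a share of 0.0159%. Each library held between 22037995 and 40754492 gene counts, of which 3268 to 7070 fell on histone genes. Summed over the 68 genes, the mean level was 160.1 CPM. The 6 highest genes held 65.1% of it: Hist1h4d (23.6 CPM), Hist1h1e (19.9 CPM), Hist1h2ae (18.9 CPM), Hist3h2a (16.9 CPM), Hist1h1c (15.2 CPM) and Hist2h2be (9.76 CPM). H1 genes held 30.2% of the sum, H2A 25.2%, H4 23.8%, H2B 18.6% and H3 2.14%, the highest H3 gene being Hist2h3c1 with 0.739 CPM. Per kilobase of annotated exon, Hist1h2ae had the highest level of these (26.9 CPM per kilobase), before Hist1h4d (20.7), Hist1h1b (11.1) and Hist1h1e (10.3). That scale allows for annotated length but not for reads set aside as matching several places, so the order of genes is uncertain.

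Few of the other copies were detected at more than a trace. A mean of at least 1 CPM was reached by 21 of the 68, and 30 had counts in every library. Hist1h2ap, Hist1h2ba, Hist1h2bq, Hist1h2br and Hist2h2aa1 were listed at 0 in all 28 libraries. The 32 untested genes together held 1.16% of the summed level. The highest of them, Hist1h2ag, averaged 0.162 CPM, and the lowest tested gene, Hist1h2bh, 0.173 CPM.

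The summed level was lowest in splenic rTreg cells in both genotypes. It averaged 134 ± 16.9 CPM in KO and 114 ± 6.54 CPM in WT rTreg cells, against 174 ± 13.7 CPM in KO and 172 ± 44.9 CPM in WT aTreg cells (SD, n = 4 KO and 3 WT). Within thymic Treg, CD4SP and aTreg cells the KO mean lay above the WT mean by less than the larger of both SDs, and in rTreg cells by more. In thymic Treg cells it was 138, 188, 195 and 147 CPM in the KO libraries, against 138, 134 and 150.2 CPM in the WT libraries. In CD4SP cells it was 174, 255, 184 and 178 CPM in KO, against 172, 178 and 164 CPM in WT. In aTreg cells it was 168, 180.3, 158 and 189.7 CPM in KO, against 137, 156 and 222 CPM in WT, and in rTreg cells 111, 132, 142 and 151 CPM in KO, against 108, 112 and 121 CPM in WT. No test was made of the sum. The genotypes overlapped in all 4 populations. The single high values belonged to 1 library each: KO CD4SP library 2 and WT aTreg library 3.

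**Figure D2:**
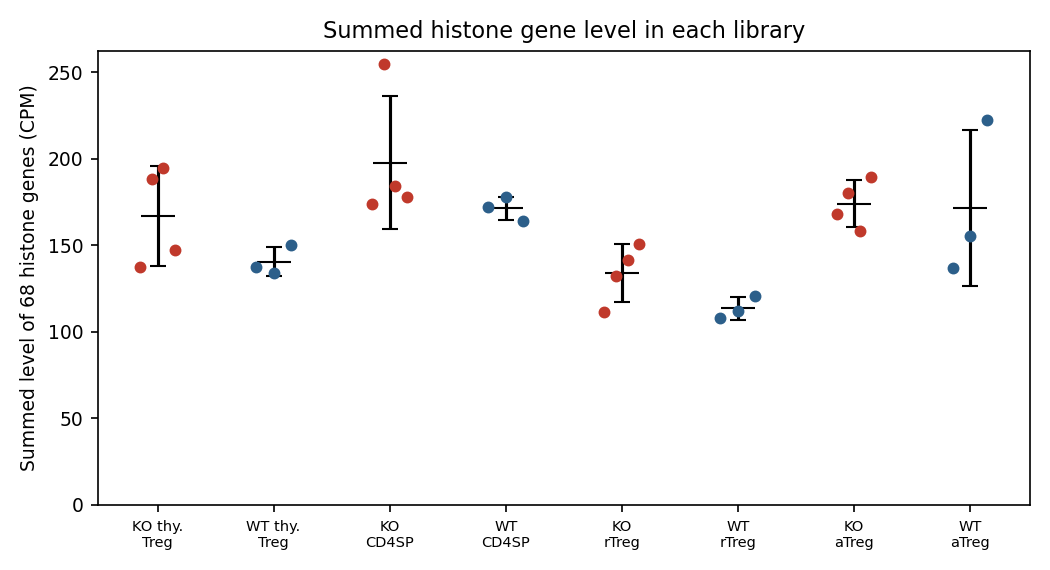
Summed level of the 68 histone genes (CPM) in each library of the 8 groups; points are libraries (KO red, WT blue) and bars are the mean with its SD. The means of splenic rTreg cells lay lowest within each genotype, with libraries that overlapped those of other groups, and KO CD4SP library 2 (255 CPM) and WT aTreg library 3 (222 CPM) lay above the others of their groups.

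Loss of CNS3 was compared with WT in each population. In thymic Treg cells Hist2h2be, an H2B gene (chr3:96221119-96223738, plus strand), fell, and it was the only histone gene of 36 past the test. Its level was 6.51, 5.33, 8.50 and 7.49 CPM in KO thymic Treg libraries, against 12.2, 12.3 and 11.1 CPM in WT ones. All 4 KO libraries lay below all 3 WT libraries. The log2 fold change was -0.77 (SE 0.149, edgeR quasi-likelihood test, adjusted p = 0.00195). Over all 13338 genes tested, 4.21% were called higher and 5.13% lower in this comparison, against 0 and 1 of the 36 histone genes, so the histone genes were not called more often than genes at large. The call was lost without KO libraries 1 and 2 (log2 fold change -0.57, edgeR adjusted p = 0.0554), and with a covariate for either the summed myeloid markers (-0.56, edgeR adjusted p = 0.0622) or the share of reads outside genes (-0.74, edgeR adjusted p = 0.218).

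The other histone genes leaned the other way without passing the test. Of the 36, 30 had a log2 fold change above 0 in KO over WT thymic Treg cells, and their median was 0.42, against 0.016 over all genes. An unadjusted p under 0.05 was reached by 5 genes. The nearest to the threshold was Hist1h4d, an H4 gene, with 24.6, 37.2, 32.8 and 24.3 CPM in KO, against 19.7, 20.2 and 22.5 CPM in WT. The 2 groups of that gene did not overlap; its log2 fold change was 0.51 (edgeR adjusted p = 0.0884), and DESeq2 placed it past the threshold (adjusted p = 0.0485). Hist1h2ae had 16.7, 28.9, 27.8 and 15.4 CPM in KO, against 10.7, 15.2 and 17.1 CPM in WT, which overlapped. Hist1h4d and Hist1h2bg lay higher and Hist2h2be lower in every KO library than in any WT library, a separation found in 11.7% of all tested genes upward and 10.4% downward. The KO and WT libraries of the other tested genes overlapped.

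Technical shares and markers of other cells moved with this comparison. The share of reads set aside as matching several places was 26.6% to 30.1% in KO and 25.3% to 26.3% in WT thymic Treg libraries. With that share as a covariate, the log2 fold changes of Hist1h4d, Hist1h2ae and Hist1h1e were -0.053, -0.065 and -0.032. Leaving out reads at several places, reads outside genes made up 42.3% to 45.0% of the rest in KO and 46.3% to 49.3% in WT libraries. The summed level of 9 myeloid cell markers was 699, 887, 411 and 396 CPM in KO and 357, 260 and 261 CPM in WT; 3 of the 9 rose. No marker was at 0 in every library of a group, and WT library 2 had 2 of the 9 at 0. The part of these in the histone results was not tested beyond those fits.

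**Figure D3:**
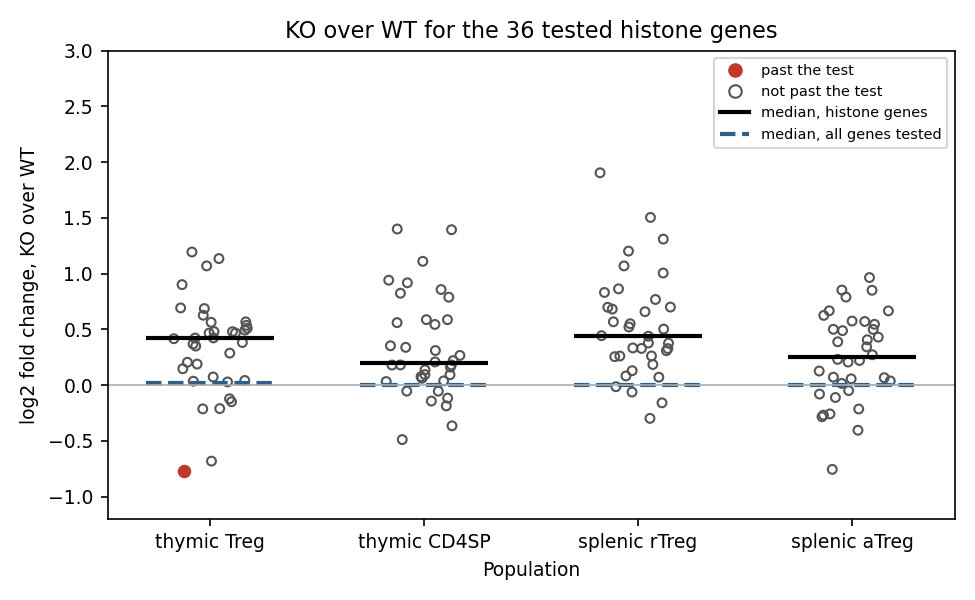
Log2 fold change, KO over WT, of the 36 tested histone genes in the 4 populations; each circle is a gene, the filled red one (Hist2h2be in thymic Treg cells) is past the test, the black bar is the median of the histone genes and the dashed bar that of all genes tested. The medians of the histone genes were 0.42, 0.19, 0.44 and 0.25, and those of all genes lay close to 0.

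In the 3 other populations no histone gene passed the test between KO and WT. In CD4SP cells, where 0.165% of all genes were called higher and 0.03% lower, edgeR and DESeq2 each called 0 of 36, and 5 had an unadjusted p under 0.05 by edgeR. In rTreg cells (0.0825% higher, 0.0525% lower of all genes) both tools again called 0, with 5 at an unadjusted p under 0.05. In aTreg cells (0.0225% higher, 0.0075% lower) both called 0, with 6 at an unadjusted p under 0.05. The medians were 0.19 in CD4SP, 0.44 in rTreg and 0.25 in aTreg cells, with 29, 32 and 27 of 36 genes above 0, while the medians of all genes were 0.0014, 0.0022 and 0.0022. These medians describe 36 genes that share libraries and reads, and they are no test of a difference.

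Among the abundant genes, Hist1h1c, a linker histone gene, had its largest KO over WT values in the spleen. It measured 15.3, 17.4, 21.98 and 21.8 CPM in KO rTreg cells, against 11.2, 11.0 and 14.1 CPM in WT rTreg cells, without overlap (log2 fold change 0.66, edgeR adjusted p = 0.285). In aTreg cells it measured 17.0, 20.1, 20.8 and 23.8 CPM in KO, against 14.8, 10.5 and 18.04 CPM in WT, which overlapped (0.50, edgeR adjusted p = 0.556). Hist1h2bc, an H2B gene, averaged 11.4 ± 1.37 CPM in KO and 10.9 ± 1.16 CPM in WT thymic Treg cells, and 6.01 ± 0.591 CPM in KO and 6.197 ± 0.819 CPM in WT aTreg cells (SD, n = 4 KO and 3 WT). In CD4SP cells 5 of the 36 genes lay higher in every KO than in any WT library, where 2.5% of all tested genes did, and in rTreg cells 8 of 36 did, against 4.09% of all genes. None lay lower in every KO library, against 2.53% of all genes in CD4SP and 3.76% in rTreg cells. None was separated in aTreg cells, against 4.1% of all genes higher and 4.03% lower. The lowest adjusted p of a histone gene was 0.274 in CD4SP, 0.251 in rTreg and 0.556 in aTreg cells.

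**Figure D4:**
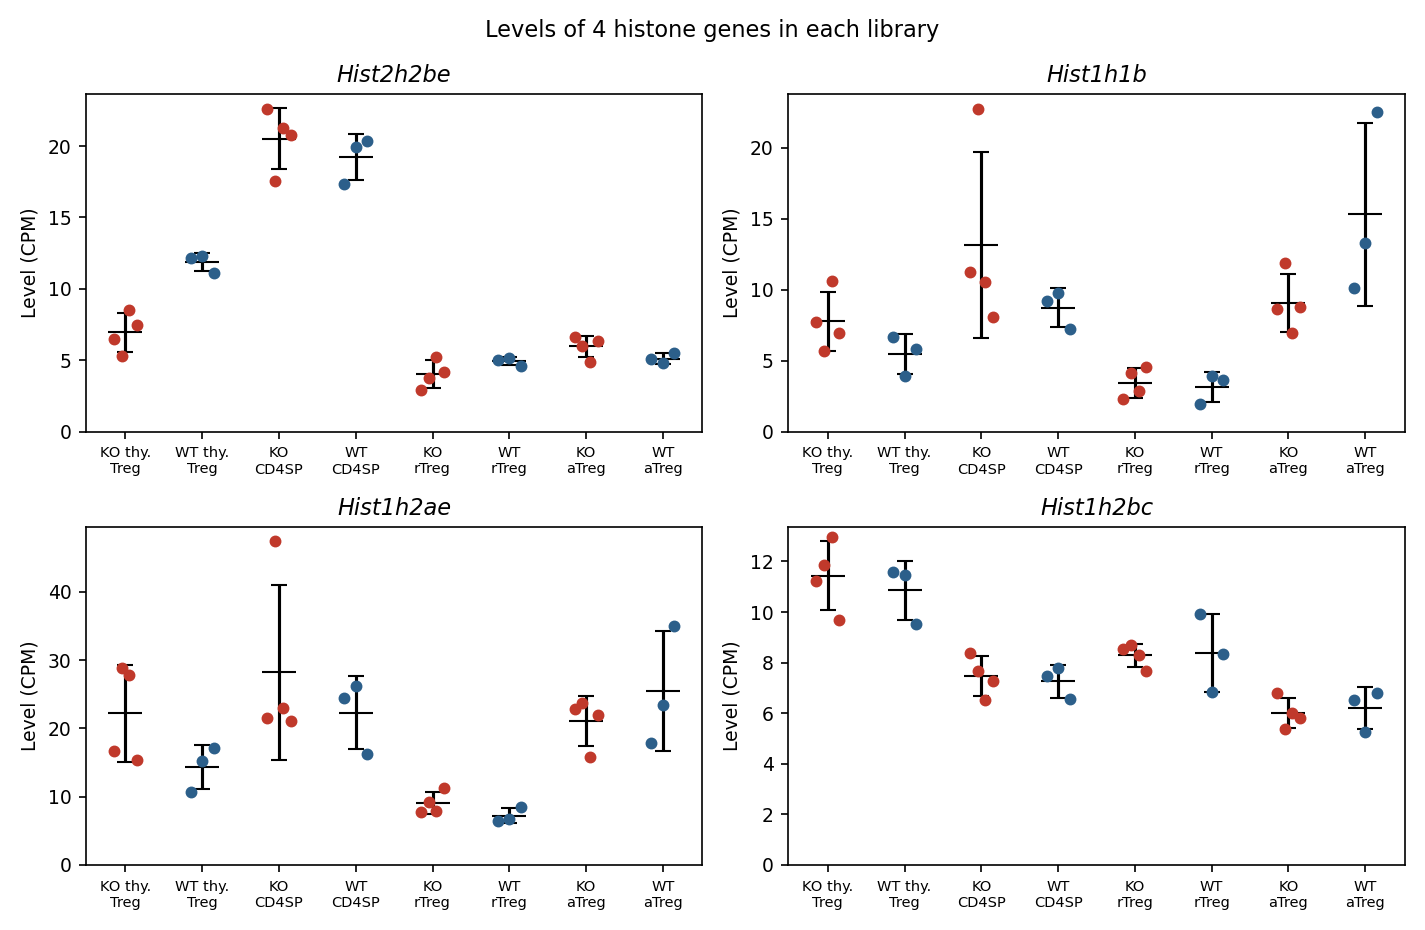
Levels (CPM) of Hist2h2be, Hist1h1b, Hist1h2ae and Hist1h2bc in each library of the 8 groups; points are libraries (KO red, WT blue) and bars are the mean with its SD. Hist2h2be was separated between KO and WT in thymic Treg cells and was highest in CD4SP cells, Hist1h1b and Hist1h2ae were lowest in rTreg cells, and Hist1h2bc was highest in thymic Treg cells.

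Splenic aTreg cells were compared with rTreg cells within each genotype. Of the linker histone genes 3 of 5 rose in aTreg cells in each genotype, and of the H2A genes 2 of 7 rose in each, while 1 H2A gene, Hist3h2a, fell in WT. The call of Hist3h2a (log2 fold change -0.32) was lost in 11 of 14 alternative fits. In KO mice 6 of 36 histone genes rose and 2 fell, where 21.7% of all genes rose and 19.9% fell. In WT mice 8 rose and 2 fell, where 19.9% of all genes rose and 18.1% fell. The shares of histone genes called, 22.2% in KO and 27.8% in WT, were thus below those of all genes. The comparisons of the 2 genotypes share no libraries: 6 genes were called in both, which is 75% of the KO calls and 60% of the WT calls. These were Hist1h1b, Hist1h1d, Hist1h1e, Hist1h2ab and Hist1h2ae, which rose, and Hist1h2bc, which fell.

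Hist1h1b, a linker histone gene that shares no window of 50 bases with another gene, had the largest rise in aTreg cells among the histone genes past the test, in both genotypes. It measured 8.63, 11.9, 6.92 and 8.81 CPM in KO aTreg, against 2.32, 4.10, 2.84 and 4.58 CPM in KO rTreg libraries. The log2 fold change was 1.39 (SE 0.304, edgeR adjusted p = 0.000528). In WT cells it measured 10.2, 13.3 and 22.6 CPM in aTreg, against 1.94, 3.90 and 3.62 CPM in rTreg libraries (2.28, SE 0.351, edgeR adjusted p = 7.34e-06). Every aTreg library lay above every rTreg library in both genotypes, and no alternative fit ended either call.

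Hist1h2ae, an H2A gene, rose too. It measured 22.8, 23.7, 15.8 and 22.03 CPM in KO aTreg, against 7.78, 9.24, 7.93 and 11.3 CPM in KO rTreg libraries (log2 fold change 1.22, SE 0.259, edgeR adjusted p = 0.000385). In WT mice it measured 17.8, 23.4 and 35.0 CPM in aTreg, against 6.41, 6.74 and 8.44 CPM in rTreg (1.82, SE 0.302, edgeR adjusted p = 2.11e-05). Neither pair of groups overlapped. The KO call was lost in 1 of 16 alternative fits and the WT call in 0 of 14. Hist1h1e, a linker histone gene, averaged 23.4 ± 3.05 CPM in KO aTreg and 15.4 ± 1.35 CPM in KO rTreg cells (SD, n = 4 each; log2 fold change 0.61, edgeR adjusted p = 0.00733), and 22.3 ± 5.23 CPM in WT aTreg and 12.8 ± 0.729 CPM in WT rTreg cells (SD, n = 3 each; 0.80, edgeR adjusted p = 0.00289). The exons of Hist1h1e overlap those of Hist1h2be on the same strand, so the counts of both are uncertain. Hist1h1d, a further linker histone gene, averaged 2.51 ± 0.339 CPM in KO aTreg and 1.06 ± 0.563 CPM in KO rTreg cells (1.25), and 2.301 ± 1.11 CPM in WT aTreg and 0.774 ± 0.142 CPM in WT rTreg cells (1.57). Hist1h1c, the remaining abundant linker histone gene, did not pass the test in either genotype.

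Hist1h2bc went the other way. It averaged 6.01 ± 0.591 CPM in KO aTreg and 8.30 ± 0.450 CPM in KO rTreg cells (SD, n = 4 each), without overlap (log2 fold change -0.47, edgeR adjusted p = 0.00437), and 6.197 ± 0.819 CPM in WT aTreg and 8.37 ± 1.53 CPM in WT rTreg cells (SD, n = 3 each; -0.43, edgeR adjusted p = 0.0204). Hist2h2be rose in KO aTreg cells, with 5.97 ± 0.754 CPM against 4.02 ± 0.975 CPM in KO rTreg cells (SD, n = 4 each; 0.57, edgeR adjusted p = 0.00287), while WT aTreg cells had 5.12 ± 0.367 CPM and WT rTreg cells 4.94 ± 0.271 CPM, which did not pass. Hist1h4d rose in WT aTreg cells, with 18.03, 22.9 and 36.04 CPM, against 14.4, 17.0 and 13.2 CPM in WT rTreg libraries (0.79, edgeR adjusted p = 0.00348). Without WT aTreg library 3 that call was lost (edgeR adjusted p = 0.0802) and 4 histone genes in place of 10 were called in WT, against 6 without WT rTreg library 1. In KO, 3 in place of 8 were called with a covariate for the share of reads outside genes. No histone gene passed the test of the difference between the KO effect in aTreg and that in rTreg cells: edgeR and DESeq2 each called 0 of 36, 1 gene had an unadjusted p under 0.05, and 0% of all genes were called in either direction.

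Cell cycle genes moved with the aTreg comparison. Of 26 S phase genes, 15 rose in KO aTreg cells and 19 in WT aTreg cells, and none fell. Rrm2, a subunit of the enzyme that makes deoxynucleotides, rose by 1.19 on the log2 scale in KO and 1.72 in WT. All 14 mitosis genes rose in both genotypes, among them the proliferation marker Mki67 (1.33 in KO, 1.82 in WT). In bulk populations more cells in S phase and more histone RNA per cell cannot be told apart. Myeloid markers also moved: 6 of 9 rose in both genotypes, with a summed level of 195.5 to 222 CPM in KO aTreg and 100.7 to 123 CPM in KO rTreg libraries, and of 274 to 322 CPM in WT aTreg and 115 to 119 CPM in WT rTreg libraries; 1 marker was at 0 in WT rTreg library 2 and 2 were in KO rTreg library 3. Of 7 dendritic cell markers 3 rose in KO and 5 in WT aTreg cells, and of 9 B cell markers 3 rose in KO and none in WT. The part of these markers in the histone results was not tested.

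Thymic Treg cells were next compared with CD4SP cells, the thymic CD4 T cells that were not Treg cells. Hist2h2be and the H2A gene Hist3h2a were lower in Treg cells, and the H2B genes Hist1h2bc and Hist1h2bg were higher, in both genotypes. In KO mice 2 histone genes rose and 7 fell (30% and 26.5% of all genes), and in WT mice 2 rose and 6 fell (26.8% and 21.6% of all genes). The 4 genes just named were the ones called in both, which is 44.4% of the KO calls and 50% of the WT calls.

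Hist2h2be averaged 6.96 ± 1.35 CPM in KO thymic Treg and 20.5 ± 2.14 CPM in KO CD4SP cells (SD, n = 4 each), a log2 fold change of -1.56 (SE 0.141, edgeR adjusted p = 1.82e-10). In WT mice it averaged 11.9 ± 0.640 CPM in thymic Treg and 19.2 ± 1.63 CPM in CD4SP cells (SD, n = 3 each; -0.70, SE 0.156, edgeR adjusted p = 0.00052). No library of the Treg groups reached the CD4SP range of 17.4 to 22.6 CPM. Hist1h2bc averaged 11.4 ± 1.37 CPM in KO thymic Treg and 7.46 ± 0.783 CPM in KO CD4SP cells (0.62, edgeR adjusted p = 0.000138), and 10.9 ± 1.16 CPM in WT thymic Treg and 7.26 ± 0.645 CPM in WT CD4SP cells (0.58, edgeR adjusted p = 0.0014). Both genes are H2B genes, and they stood on opposite sides in the same libraries.

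Hist3h2a averaged 13.0 ± 0.711 CPM in KO thymic Treg and 18.8 ± 1.63 CPM in KO CD4SP cells (-0.53, edgeR adjusted p = 0.000185), and 15.1 ± 1.39 CPM in WT thymic Treg and 20.3 ± 0.440 CPM in WT CD4SP cells (-0.43, edgeR adjusted p = 0.00531). Its exons overlap those of Trim17, which is in the tables' gene set, on the same strand. A strand setting of the counting would not separate them, so the counts of Hist3h2a are uncertain. Hist1h2bg, at lower levels, averaged 1.71 ± 0.327 CPM in KO thymic Treg and 0.944 ± 0.264 CPM in KO CD4SP cells (0.84), and 1.22 ± 0.167 CPM in WT thymic Treg and 0.548 ± 0.0876 CPM in WT CD4SP cells (1.15). The further calls went down and each in 1 genotype: Hist1h1a, Hist1h1b, Hist1h3f, Hist2h2bb and Hist3h2ba in KO, and Hist1h2ab, Hist1h2ak, Hist1h2bj and Hist1h4d in WT. Those of WT depended on the fit: with the share of reads at several places as a covariate, none of these 4 passed, and the value of Hist1h4d was 0.021 in place of -0.57. Those of KO depended on it as well. The call of Hist1h3f was lost in 9 of 16 alternative fits. Of 17 alternative fits, Hist2h2bb lost its call in 7, Hist1h1b in 5, and Hist1h1a and Hist3h2ba in 3 each. Markers of other cells moved with this comparison. In thymic Treg over CD4SP cells 7 of 9 myeloid markers rose and 1 fell in KO, and 6 rose in WT. Of 9 B cell markers 6 rose and 1 fell in KO and 6 rose in WT, and of 7 dendritic cell markers 4 rose in KO and 5 in WT. Of 5 immature thymocyte markers 4 fell in KO and none in WT. Summed dendritic cell markers measured 98.2 to 188 CPM in KO thymic Treg and 6.02 to 67.1 CPM in KO CD4SP libraries, and 79.7 to 128 CPM in WT thymic Treg and 4.92 to 13.3 CPM in WT CD4SP libraries. Summed immature thymocyte markers measured 130.2 to 157 CPM in KO thymic Treg and 163 to 516 CPM in KO CD4SP libraries. In WT splenic rTreg libraries, where Rag1, Rag2 and Ptcra of this list were at 0, the sum was still 106 to 116 CPM. Its size is thus no measure of those genes. The B cell marker Pax5 was at 0 in all WT thymic Treg and WT CD4SP libraries. The part of these markers was not tested.

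Counts of calls in the thymus also moved with single libraries and with the libraries fitted: KO calls numbered 5 in place of 9 without KO thymic Treg library 1 or with only the groups compared in the fit, and WT calls 4 in place of 8 without WT thymic Treg library 2 or WT CD4SP library 2.

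The KO effect itself differed between thymic Treg and CD4SP cells for Hist2h2be. In CD4SP cells it measured 22.6, 17.5, 21.2 and 20.8 CPM in KO, against 17.4, 19.9 and 20.4 CPM in WT, which overlapped. The KO effect in Treg cells minus that in CD4SP cells was -0.86 on the log2 scale (SE 0.209, edgeR adjusted p = 0.0496). It was the single histone gene called, where 0.315% of all genes had a positive and 0.3% a negative difference past the test. The call lies next to the threshold and was lost in 16 of 24 alternative fits, with values from -0.97 to -0.67 and edgeR or DESeq2 adjusted p from 0.00428 to 0.606. Of the 14 thymic libraries left out singly, the call held without KO thymic Treg library 3 or 4 or KO CD4SP library 2, and was lost without each of the others.

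Splenic rTreg cells were compared with thymic Treg cells, again within genotype. The linker histone genes Hist1h1d and Hist1h1e, and Hist1h2ae, Hist1h2bc and Hist2h2be, were lower in the spleen, and Hist3h2a and Hist4h4, an H4 gene, were higher. In KO mice 5 histone genes rose and 8 fell (19.6% and 23.3% of all genes), and in WT mice 2 rose and 6 fell (13.9% and 16.7% of all genes). Both genotypes shared 7 calls, which is 53.8% of those of KO and 87.5% of those of WT: Hist1h1d, Hist1h1e, Hist1h2ae, Hist1h2bc and Hist2h2be, which fell, and Hist3h2a and Hist4h4, which rose.

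Hist2h2be fell to 4.02 ± 0.975 CPM in KO rTreg cells, against 6.96 ± 1.35 CPM in KO thymic Treg cells (SD, n = 4 each; -0.79, SE 0.148, edgeR adjusted p = 9.99e-05), and to 4.94 ± 0.271 CPM in WT rTreg cells, against 11.9 ± 0.640 CPM in WT thymic Treg cells (SD, n = 3 each; -1.26, SE 0.165, edgeR adjusted p = 1.06e-06). Neither call was lost in any alternative fit. Hist1h2ae fell to 9.05 ± 1.61 CPM in KO rTreg, against 22.2 ± 7.11 CPM in KO thymic Treg cells (-1.29, edgeR adjusted p = 0.000224), and to 7.20 ± 1.09 CPM in WT rTreg, against 14.3 ± 3.27 CPM in WT thymic Treg cells (-0.99, edgeR adjusted p = 0.013). Hist1h4d measured 11.6, 14.5, 14.1 and 16.9 CPM in KO rTreg, against 24.6, 37.2, 32.8 and 24.3 CPM in KO thymic Treg libraries, without overlap (-1.06, edgeR adjusted p = 3.44e-05); WT rTreg libraries had 14.4, 17.0 and 13.2 CPM and WT thymic Treg libraries 19.7, 20.2 and 22.5 CPM, which did not overlap either but did not pass the test.

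Among the genes that rose in the spleen, Hist4h4 averaged 4.75 ± 0.909 CPM in KO rTreg and 2.46 ± 0.747 CPM in KO thymic Treg cells (0.95, edgeR adjusted p = 0.00669), and 3.98 ± 0.378 CPM in WT rTreg and 1.87 ± 0.679 CPM in WT thymic Treg cells (1.08, edgeR adjusted p = 0.0115). Hist3h2a averaged 17.9 ± 2.70 CPM in KO rTreg and 13.0 ± 0.711 CPM in KO thymic Treg cells (0.46, edgeR adjusted p = 0.0014), and 20.0 ± 0.413 CPM in WT rTreg and 15.1 ± 1.39 CPM in WT thymic Treg cells (0.41, edgeR adjusted p = 0.0144). The highest H3 gene, Hist2h3c1, fell in WT to 0.387 ± 0.0660 CPM in rTreg, against 1.37 ± 0.155 CPM in thymic Treg cells (-1.80, edgeR adjusted p = 0.0102). Of the 26 S phase genes 20 fell in KO and 13 in WT rTreg cells and none rose, and of the 14 mitosis genes 14 fell in KO and 9 in WT. Of the 9 myeloid markers 7 fell in KO and 6 in WT, all 5 immature thymocyte markers fell in both, and of 9 B cell markers 5 rose in KO and 6 in WT. Summed B cell markers measured 77.6 to 92.4 CPM in KO rTreg libraries, against 54.1 to 58.5 CPM in those of KO thymic Treg cells. In WT they measured 74.2 to 88.7 CPM in rTreg libraries, against 36.7 to 39.3 CPM in those of thymic Treg cells. Rag2 was at 0 in every KO rTreg library, and Rag1, Rag2 and Ptcra were in every WT one. The part of these markers was not tested. With a covariate for the share of reads outside genes the KO calls numbered 2 in place of 13, and with the share of reads at several places 6. Without WT thymic Treg library 3 the WT calls numbered 5 in place of 8.

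**Figure D5:**
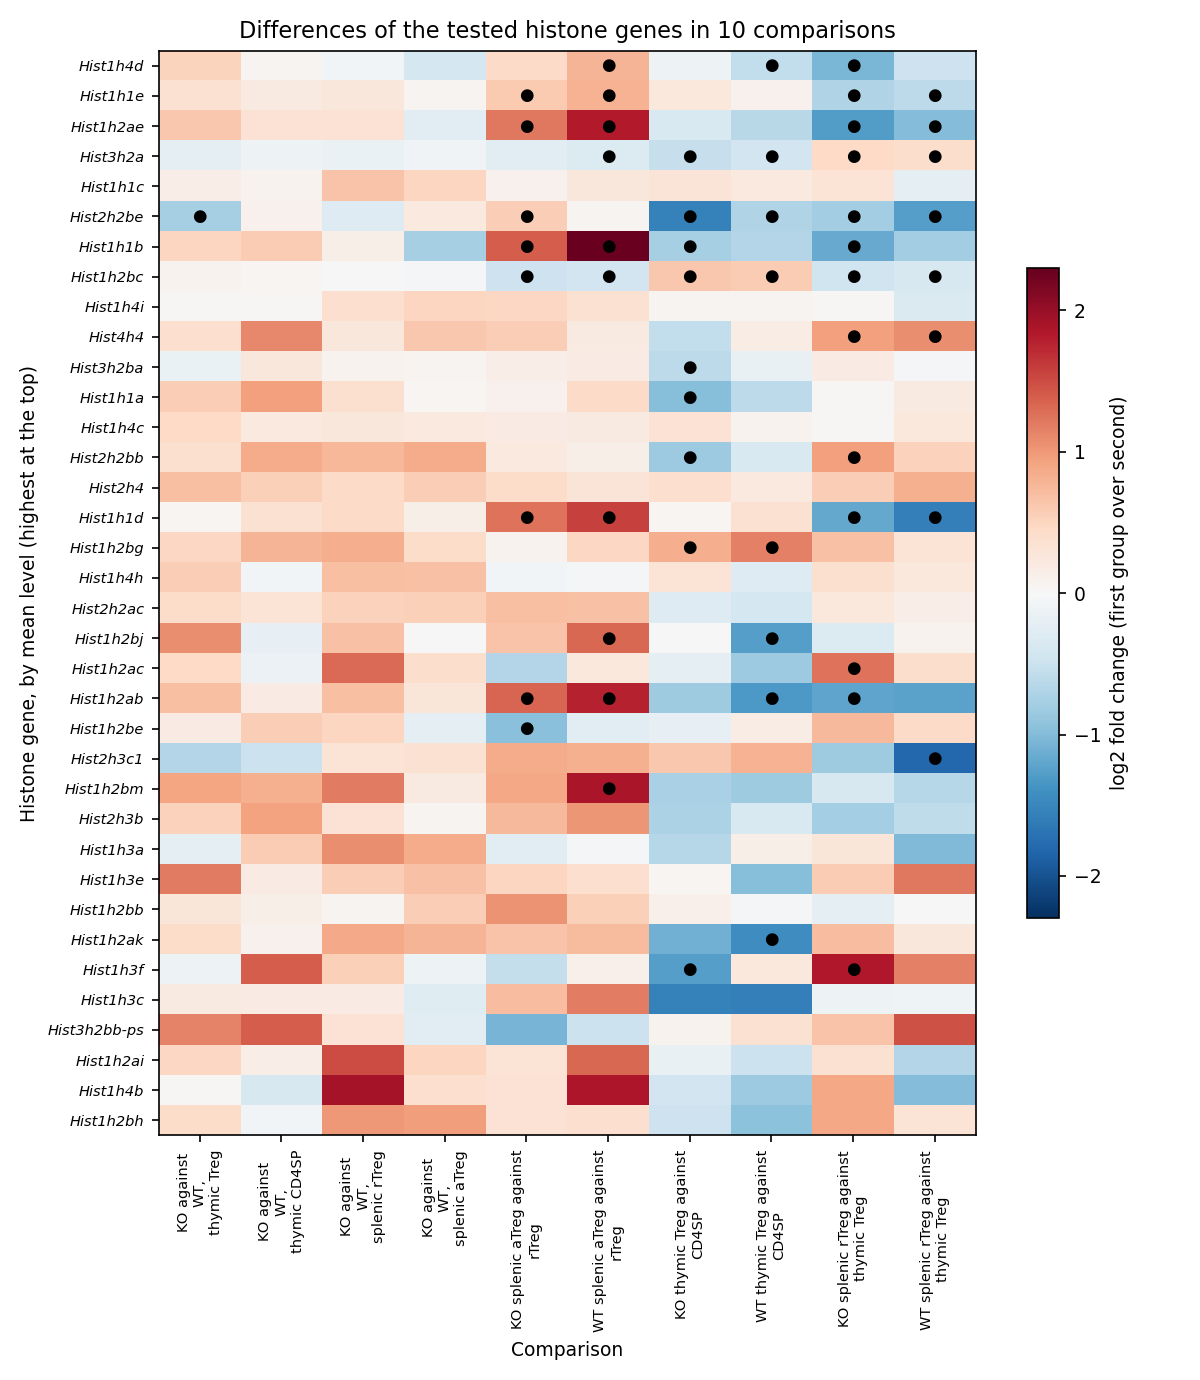
Log2 fold change (colour, first group over second) of the 36 tested histone genes in 10 comparisons of 2 groups, with a dot on each value past the test; genes run from the highest mean level at the top. A single dot stands in the 4 KO over WT columns, Hist2h2be in thymic Treg cells (-0.77), and the deepest red belongs to Hist1h1b in WT aTreg over rTreg cells (2.28).

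Over all 12 comparisons, some of which share libraries, 21 of the 36 tested genes passed the test somewhere and 15 nowhere, where 83.3% of all tested genes passed at least once. Hist2h2be passed most often, in 7 comparisons, 6 times lower and 1 time higher. It was followed by Hist1h2bc with 6 and Hist3h2a with 5.

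Starts of 13 pairs of histone genes faced away from each other within 500 bases, at distances of 173 to 306 bases, and each pair joined an H2A and an H2B gene. In 4 of the pairs both genes were tested, among them Hist3h2a with the pseudogene Hist3h2bb-ps. Hist1h2ae, whose promoter is printed above and also holds the start of Hist1h2bg, averaged 26.9 CPM per kilobase of exon and Hist1h2bg 2.85 CPM per kilobase, with starts 176 bases apart; 43.2% and 49.7% of their windows of 50 bases are shared with other genes. In aTreg over rTreg cells Hist1h2ae rose by 1.22 in KO and 1.82 in WT on the log2 scale, where Hist1h2bg had 0.081 and 0.48 and did not pass. In thymic Treg over CD4SP cells it was Hist1h2bg that rose, by 0.84 in KO and 1.15 in WT, where Hist1h2ae had -0.35 and -0.64. Hist2h2be averaged 3.73 CPM per kilobase and its neighbour Hist2h2ac, 239 bases away, 2.61 CPM per kilobase. Hist2h2be shares no window of 50 bases with other genes, and Hist2h2ac shares 38.6% of its own. In KO over WT thymic Treg cells Hist2h2be had -0.77 and Hist2h2ac 0.42, the second without passing the test. Hist2h2ac, like Hist1h2ag and Hist1h2bh above, was chosen after its values were seen. Whether the 2 genes of a pair differed in their response was not tested.

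Histone genes outside the clusters and the genes that serve histone mRNA were read from 3 further lists. Of all genes, 4.21% rose and 5.13% fell in KO over WT thymic Treg cells. In aTreg over rTreg cells 21.7% rose and 19.9% fell in KO, and 19.9% and 18.1% in WT. In thymic Treg over CD4SP cells 30% rose and 26.5% fell in KO, and 26.8% and 21.6% in WT. In rTreg over thymic Treg cells 19.6% rose and 23.3% fell in KO, and 13.9% and 16.7% in WT. No list was tested against these shares. Of 9 tested genes listed as replication-independent histones, H2afz, an H2A variant, rose in KO over WT thymic Treg cells, and the other 8 did not pass. H2afz averaged 95.7 ± 8.56 CPM in KO and 69.0 ± 3.78 CPM in WT (SD, n = 4 KO and 3 WT). Its log2 fold change was 0.47 (edgeR adjusted p = 0.0208). In aTreg over rTreg cells 6 rose and 1 fell in KO, and 5 rose and 1 fell in WT. H1f0, a linker histone of resting and differentiated cells, rose to 70.1 ± 11.9 CPM in KO aTreg, against 26.6 ± 3.30 CPM in KO rTreg cells (1.40), and to 67.5 ± 12.5 CPM in WT aTreg, against 21.3 ± 1.96 CPM in WT rTreg cells (1.66). In thymic Treg over CD4SP cells H2afz rose by 1.16 in KO and 0.85 in WT, while H2afj fell in both; 2 genes rose and 4 fell in KO, and 2 rose and 5 fell in WT. In rTreg over thymic Treg cells 3 fell in KO and none rose, and 3 fell and 1 rose in WT.

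Of 13 genes for histone gene transcription and histone mRNA processing, Pou2f1, whose protein binds the octamer, fell in KO thymic Treg cells to 77.5 ± 6.67 CPM, against 102 ± 12.5 CPM in WT (-0.39, edgeR adjusted p = 0.00155), and was the only one called. In aTreg over rTreg cells 3 rose and 3 fell in KO and 3 rose and 2 fell in WT, near the shares of all genes. Slbp, whose protein binds the stem-loop, rose to 159.6 ± 8.75 CPM in KO aTreg, against 106 ± 6.02 CPM in KO rTreg cells (0.59), and to 153 ± 22.5 CPM in WT aTreg, against 102 ± 18.03 CPM in WT rTreg cells (0.58). Lsm10, a subunit of the particle that cuts histone pre-mRNA, also rose in both. In thymic Treg over CD4SP cells none rose and 7 fell in KO, and 1 rose and 3 fell in WT. In rTreg over thymic Treg cells 3 rose and 1 fell in KO, and 2 rose in WT.

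Of 13 histone chaperone genes, 2 rose and 1 fell in KO over WT thymic Treg cells. Asf1b, a carrier of H3 and H4, rose to 60.5 ± 8.21 CPM in KO, against 39.8 ± 5.58 CPM in WT (0.60, edgeR adjusted p = 0.0143). It also rose in aTreg over rTreg cells, by 0.80 in KO and 1.24 in WT. In that comparison 3 chaperone genes rose and 2 fell in KO, and 4 rose and 2 fell in WT. In thymic Treg over CD4SP cells 1 rose and 7 fell in KO, and 5 fell in WT, among them in both Chaf1b, a subunit of the assembly factor CAF-1. In rTreg over thymic Treg cells 1 rose and 4 fell in KO, and 3 fell in WT. Of the S phase genes 7 of 26 and of the mitosis genes 3 of 14 rose in KO over WT thymic Treg cells, and none fell. In thymic Treg over CD4SP cells 5 S phase genes rose and 4 fell in KO and 9 fell in WT, and 10 mitosis genes fell in KO and 13 in WT.

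Setting the genes with little shared sequence apart gave values on the same side in KO over WT. The 10 tested genes with under 10% of their windows of 50 bases shared had medians of 0.36 in thymic Treg, 0.45 in CD4SP, 0.32 in rTreg and 0.17 in aTreg cells, and the 26 others 0.45, 0.18, 0.54 and 0.31. The 27 genes with a stem-loop match had medians of 0.38, 0.18, 0.50 and 0.34, and the 9 without one 0.48, 0.59, 0.33 and 0.066. In aTreg over rTreg cells the calls of the 10 genes were 4 higher in KO, and 3 higher and 1 lower in WT. No difference between these classes was tested.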

How the data were processed

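The deposited files give whole-number counts per gene symbol for 28 libraries, made by the authors with Trimmomatic, STAR and HTSeq on build mm10, per the submitters' processing notes; no source used here gives versions, annotation or strand setting. Reads outside genes, ambiguous reads and reads at several places stood in rows of their own and were left out of library sizes and tests. Those at several places made up 22.8% to 30.4% of the reads in genes and in these rows. Of the remaining reads, 42.3% to 49.7% lay outside genes and 0.608% to 0.763% were ambiguous. Counts were scaled by TMM (factors 0.970 to 1.04) and tested with edgeR 4.0.16 in R 4.3.3: a quasi-likelihood F test in 1 fit with 8 group means, filterByExpr by group, and Benjamini-Hochberg adjustment over 13338 genes with a threshold of 0.05. The common coefficient of variation was 12.7%. Libraries of a group differed by more than sampling noise (chi-square per degree of freedom 7.08 to 37.6), and all were kept as separate. Repeat libraries of an animal could differ by as much, so the values do not tell whether libraries came from separate animals. Levels are CPM on the scaled library sizes. DESeq2 1.42.0, scaling by size factors, no filter, smaller fits, covariates, blocks and left-out libraries were alternatives. The step was tested on simulated data.

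The named genes are the 6 highest by mean CPM, the highest of each family, and up to 8 past the test with the smallest p in each direction and comparison; of other lists, up to 3 per comparison. The members and lists were chosen with earlier results of these data known. Deviations of same-numbered libraries from their group means had a positive r in every pair of the comparisons within a genotype, from 0.0167 to 0.328. It was 0.177 to 0.328 for KO aTreg with rTreg (4 pairs) and 0.111 to 0.216 for WT thymic Treg with CD4SP (3 pairs). Between KO and WT groups r ran from -0.107 to 0.263. Libraries numbered 1 had 0.195 to 0.263 over the 4 populations, those numbered 2 had -0.107 to -0.0185, and those numbered 3 had -0.0637 to 0.156. What the numbers share between genotypes was not tested. The pairing comes from the numbers in the titles, and the main fit did not use it. Shared windows and stem-loops were computed on GENCODE M21 transcripts (GRCm38), to which all 68 symbols matched.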

Additional observations from a re-analysis of the deposited data

Results flagged for a closer look

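Values far from the other libraries of their group were searched in the 4 KO groups, for 22 named genes and 6 sums. WT groups, of 3 libraries each, were not searched. The sums contain the named genes, so the 112 sets of 4 values are not independent, and no excess over chance was tested. Far values numbered 10 (8.93% of the sets), where chance flags about 1 in 20 independent sets. KO CD4SP library 2 was high in 5 of them: the sum of all 68 histone genes (255 CPM, the others 174 to 184), the sum of the H1 genes (79.3 CPM, the others 43.7 to 48.9), Hist1h2ab (3.03 CPM, the others 1.02 to 1.34), Hist1h2ae (47.4 CPM, the others 21.02 to 22.9) and Hist1h4d (45.0 CPM, the others 26.8 to 28.9). The same library had the highest summed levels of its group for S phase genes (2245 CPM, the others 1362 to 1495), mitosis genes (1225 CPM, the others 725 to 782), immature thymocyte markers (516 CPM, the others 163 to 180.4) and myeloid markers (266 CPM, the others 88.0 to 103); their part was not tested.

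KO CD4SP library 1 was low for Hist1h2be (0.572 CPM, the others 0.979 to 1.04) and Hist1h2bm (0.818 CPM, the others 1.01 to 1.05). KO rTreg library 1 was low for Hist1h2bg (1.44 CPM, the others 3.07 to 3.24). KO aTreg library 3 was low for Hist1h2ac (0.923 CPM, the others 1.21 to 1.25) and high for Hist2h3c1 (1.64 CPM, the others 0.521 to 0.698). Hist2h2be differed in its KO effect between thymic Treg and CD4SP cells by -0.86 on the log2 scale (edgeR interaction test, adjusted p = 0.0496).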

How the results depend on the processing

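Of 58 calls of a histone gene in a comparison, 16 kept their call under every alternative fit, 42 lost it under at least 1, and 1 changed direction (Hist1h4d, WT thymic Treg over CD4SP, 0.021 with the share of reads at several places as a covariate). No call named in the text was lost with the replicate block; it gave 10 calls, and 11 when set within genotype, in place of 8 for KO aTreg over rTreg, and 9 in place of 8 for WT thymic Treg over CD4SP. Whether same-numbered libraries share an animal is not in the labels.

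Counts of calls past 1.5 times their reported value were as follows; the cause was not tested. For KO over WT thymic Treg cells, in place of 1: 2 with DESeq2, and 0 with the share of reads outside genes, with the myeloid markers, or without KO thymic Treg libraries 1 and 2 (the last 2 chosen after seeing the data). For the difference of the KO effect between thymic Treg and CD4SP cells, in place of 1: 0 with only the groups compared, with each of the 3 covariates, and without those 2 libraries. For KO thymic Treg over CD4SP, in place of 9: 5 with only the groups compared. For WT thymic Treg over CD4SP, in place of 8: 5 with the share at several places and 4 with the share outside genes. For KO rTreg over thymic Treg, in place of 13: 6 and 2. For KO aTreg over rTreg, in place of 8: 3 with the share outside genes.

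Leaving out 1 library at a time gave 1 to 2 calls for KO over WT thymic Treg, 0 to 1 for the difference of KO effects in the thymus, 4 to 11 for WT aTreg over rTreg, 5 to 10 for KO and 4 to 8 for WT thymic Treg over CD4SP, and 5 to 9 for WT rTreg over thymic Treg. Without Hist1h4d, the summed level was 155 CPM in KO aTreg, 137 CPM in KO and 119.8 CPM in WT thymic Treg, 98.7 CPM in WT rTreg and 140.4 CPM in WT CD4SP cells.

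Log2 fold changes that did not pass the test changed sign as follows in KO over WT. With the share at several places: Hist1h1e -0.032, Hist1h2ae -0.065 and Hist1h4d -0.053 in thymic Treg, Hist1h4d 0.049 in rTreg. With the share outside genes: Hist1h4d -0.0496 in thymic Treg and 0.069 in rTreg. With the myeloid markers: Hist1h1e -0.0204 in thymic Treg. Without 1 library at a time, values in CD4SP cells ranged from -0.057 to 0.33 for Hist1h1c, -0.0202 to 0.31 for Hist1h1e, -0.0301 to 0.48 for Hist1h2ae and -0.14 to 0.14 for Hist1h4d. In rTreg cells they ranged from -0.15 to 0.044 for Hist1h4d and -0.18 to 0.61 for Hist2h3c1. In aTreg cells they ranged from -0.11 to 0.2000 for Hist1h1e, -0.47 to 0.032 for Hist1h2ae, -0.13 to 0.53 for Hist2h3c1 and -0.17 to 0.024 for Hist3h2a.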
